A study of Mus musculus with 123 samples.

Results

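The genes described are the nuclear genes of the respiratory chain and the ATP synthase in mouse liver, with the assembly factors whose symbols share their prefixes. They were taken by symbol from the platform annotation of the array, and 88 of the 22180 genes with a transcript cluster (the probes read as 1 transcript) of their own carried such a symbol. Liver RNA of female Collaborative Cross (CC) mice, a recombinant inbred panel, was read on Affymetrix MoGene 2.1 ST arrays, each mouse on its own array. A high-protein (HP) diet was given to 63 of them and a high-fat high-sucrose (HS) diet to 60, for 8 weeks. Every mouse came to the study at an age of 6 to 9 weeks, first ate the synthetic AIN-76A chow for 2 weeks, and was fasted for 4 h before its liver was taken. All 22 strains, called mouse types in the labels, were fed both diets, with 4 to 6 mice per strain. Neither diet is a standard chow, so a difference between HP and HS mice does not show which of them departed from chow feeding. All mice were female, and each strain is 1 inbred line.

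Oxidative phosphorylation moves electrons along 4 complexes of the inner mitochondrial membrane. Complex I takes them from NADH, complex II from succinate, complex III passes them from ubiquinol to cytochrome c, and complex IV hands them to oxygen. Complex V, the ATP synthase, uses the proton gradient that complexes I, III and IV build. Apart from complex II, whose subunits are all nuclear, each complex joins nuclear subunits with a few made from mitochondrial DNA, and hepatocytes are rich in mitochondria and draw on the chain for ureagenesis and gluconeogenesis. The symbols gave 32 genes of complex I, 4 of complex II, 8 of complex III, 18 of complex IV and 17 of complex V. A further 9 genes make assembly or supercomplex factors. The assembly factors build the complexes and are not part of the finished enzymes, and *Cox7a2l*, the supercomplex factor, was counted with them. *Ndufa4* and *Ndufa4l2*, named for complex I, were counted with complex IV, where the protein of *Ndufa4* is now placed.

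A gene was tested where its cluster was above a floor of 4.08 (log2) at the median, or in more than 12.5% of mice, which 10942 genes and 80 of the 88 members did. The filter passed all members of complexes I, II and III and all 9 assembly factors, 11 of 18 members of complex IV and 16 of 17 of complex V. The 8 that failed were *Cox4i2*, *Cox6a2*, *Cox6b2*, *Cox7b2*, *Cox8b*, *Cox8c*, *Ndufa4l2* and *Atp5j2*. Apart from *Atp5j2*, a subunit of the ATP synthase membrane part, these are forms of complex IV subunits known from lung, muscle, testis or hypoxic cells. *Cox4i2*, *Cox6a2*, *Cox7b2*, *Cox8b* and *Cox8c* were below the floor in all mice. *Atp5j2* was above it in 2 mice, *Ndufa4l2* in 7 and *Cox6b2* in 11.

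The tissue label was borne out by its markers. Of 10 hepatocyte markers, 9 were measured, among them albumin (*Alb*) at 13.20 ± 0.05 in HP mice and 13.20 ± 0.06 in HS mice (log2, SD, n = 63 and 60). None of 10 muscle and fat markers passed the filter. An HP mouse of CC071/TauUnc had *Xist*, the RNA of the inactive X chromosome, at 2.72, and all others had it between 9.16 and 10.62. Over genes, an HS mouse of CC059/TauUnc resembled CC035/Unc (r = 0.738) and not the strain on its label (r = 0.127). Both mice were kept, and counts without them are given beside the results. Array medians were 3.06 ± 0.04 in HP mice and 3.06 ± 0.04 in HS mice (log2, SD).

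The first question was whether the respiratory chain genes differed between the diets. Of the 80 members tested, 26 rose on the HP diet and 1 fell (limma, Benjamini-Hochberg adjusted p under 0.05 over 10942 genes). Of all genes tested, 6.28% rose and 5.13% fell on the HP diet, so the 26 are 32.5% of the members against 6.28% of all genes. The median difference of the members was 0.08 and that of all genes −0.01 (log2, HP minus HS). The mean was higher in HP mice for 85.0% of the members and for 46.5% of all genes. Among the 71 subunits, leaving out assembly factors, 25 rose, 0 fell by limma and 46 did not pass. Without adjustment, p was under 0.05 for 39 subunits that were higher and for 1 that was lower, against 1342 and 1395 of the 10942 genes. With strain as a block in the fit, 30 subunits rose and 0 fell, against 1262 and 1282 of all genes in the same fit. Without the 2 mice that stood apart, 24 members rose and 1 fell, against 687 and 542 of all genes. Leaving out the mice of 1 replicate number in every strain and diet left 10 to 24 members higher, and leaving out 1 strain 20 to 27. Of all genes, 687 were higher in the main fit and 256, 319 and 586 without replicate 1, 2 and 3. Without 1 strain, 561 to 718 of all genes were higher. In liver pieces such as these, fewer cells of a type and less RNA per cell cannot be told apart.

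**Figure D1:**
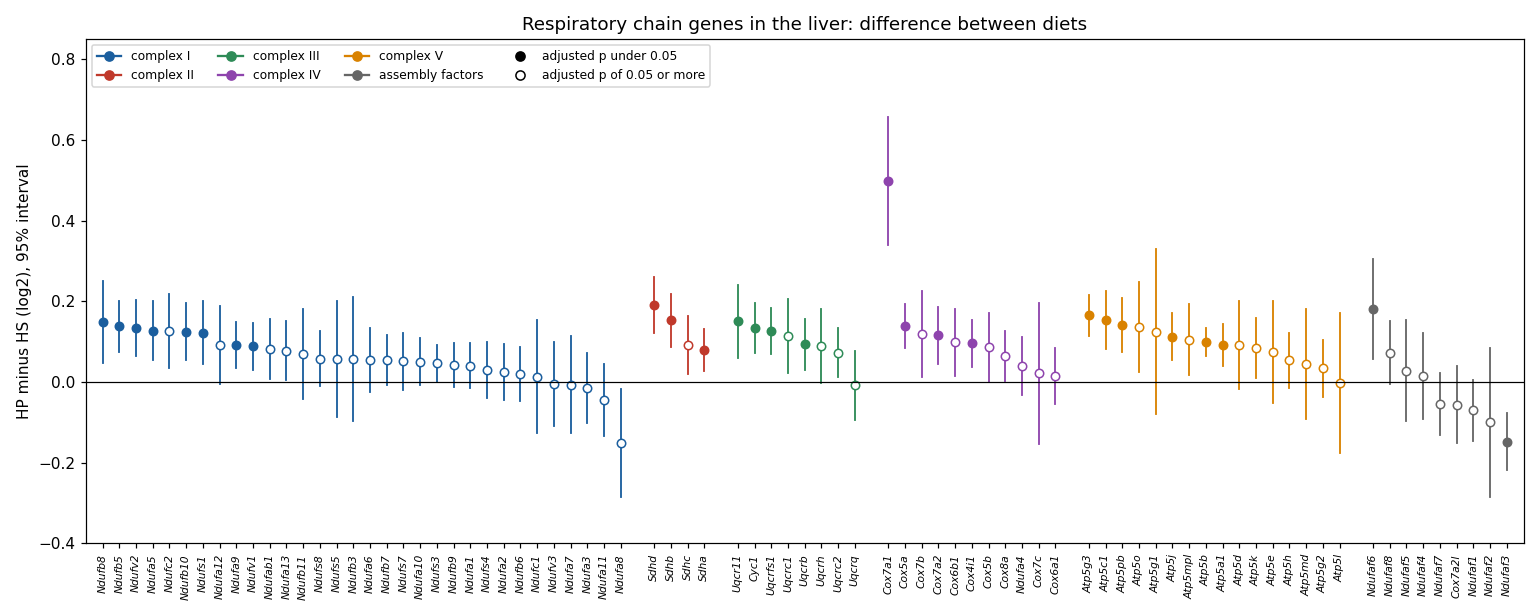
HP minus HS difference (log2, y axis) of each of the 80 measured members (x axis), by complex and in order of size, with its 95% interval from limma. Filled points passed at an adjusted p under 0.05; 26 of them lie above 0 and 1, *Ndufaf3*, below, and *Cox7a1* stands highest at 0.50.

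Markers of other liver cells and of the circadian clock also moved with diet. Of 12 Kupffer cell and macrophage markers, 3 fell on the HP diet (*Clec4f*, *Cd68* and *C1qb*), with a list median of −0.24 (log2). Their mean level ran between 5.56 and 7.93 in HP mice and between 6.44 and 8.49 in HS mice. With strain as a block, 10 of the 12 fell. Of 8 stellate cell markers, 2 fell, *Lrat* by 0.25 and *Reln* by 0.16 (4 of 8 with the block). Their mean level ran between 6.94 and 7.94 in HP mice and between 7.15 and 8.15 in HS mice. None of 9 sinusoidal endothelial, 2 measured cholangiocyte and 5 measured lymphocyte and neutrophil markers passed. At an unadjusted p under 0.05 the last list had 1 lower (*Nkg7*) and the other two had 0. The hepatocyte list had 1 member higher, *Cps1* of the urea cycle, by 0.20, and its median was −0.01. With strain as a block, 2 of its 9 measured members rose (*Cps1* and *Tat*) and 2 fell (*Apob* and *Ahsg*). The part of these cells in the members' differences was not tested. A score of clock genes was 0.40 ± 1.72 in HP mice and −0.42 ± 1.64 in HS mice (SD). Of the 8 measured clock genes that peak late, *Nr1d2* rose by 0.23, and of the 4 that peak early, *Nfil3* fell by 0.38. With that score as a covariate, 23 members rose and 1 fell, against 536 and 465 of all genes.

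Complex II had the highest share of called members. It is the succinate dehydrogenase, which also works in the citric acid cycle. *Sdhd*, *Sdhb* and *Sdha* rose and *Sdhc* did not pass, with a complex median of 0.12 (log2). *Sdhd*, an anchor of the complex in the membrane, ran between 9.19 and 10.005 in HP mice with a median of 9.69, and between 8.84 and 10.02 in HS mice with a median of 9.48. The ranges overlapped, and the HP mean was the higher one in 20 of 22 strains. The difference of *Sdhd* was 0.19 ± 0.03 (log2, SE), or 14.1% on the linear scale (adjusted p = 2.54e-05). *Sdhb*, the iron-sulphur subunit, ran between 8.71 and 9.63 in HP mice with a median of 9.27, and between 8.66 and 9.52 in HS mice with a median of 9.11. Its difference was 0.15 ± 0.03 (adjusted p = 0.00047), with the HP mean higher in 19 of 22 strains. *Sdha*, the flavoprotein that oxidizes succinate, averaged 10.35 ± 0.14 in HP mice and 10.27 ± 0.15 in HS mice (SD). Its difference of 0.08 ± 0.03 passed at an adjusted p of 0.036. It did not pass after a repeated quantile normalization (0.07, adjusted p = 0.092) or without a filter on low values (adjusted p = 0.078). *Sdhc*, the other anchor, differed by 0.09 with a 95% interval of 0.02 to 0.16 (adjusted p = 0.080), and passed with strain as a block (adjusted p = 0.040).

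In complex III, 4 of 8 members rose, with a median difference of 0.10. *Uqcrfs1*, the Rieske iron-sulphur protein, ran between 6.03 and 6.85 in HP mice with a median of 6.46, and between 6.05 and 6.63 in HS mice with a median of 6.36. The difference was 0.13 ± 0.03 (adjusted p = 0.0011), higher on HP in 20 of 22 strains. *Cyc1*, cytochrome c1, ran between 7.35 and 8.20 in HP mice with a median of 7.79, and between 7.07 and 8.09 in HS mice with a median of 7.65. Its difference was 0.13 ± 0.03 (adjusted p = 0.0013). These are the subunits that carry the electron from ubiquinol to cytochrome c. *Uqcr11*, a small accessory subunit, differed by 0.15 ± 0.05 (adjusted p = 0.018), and *Uqcrb*, another, by 0.09 ± 0.03 (adjusted p = 0.043). The call of *Uqcrb* ended with array weights and without a filter on low values. The core proteins *Uqcrc1* and *Uqcrc2*, which carry no redox group, differed by 0.11 (adjusted p = 0.092) and 0.07 (adjusted p = 0.12). *Uqcrq* was the only member of the complex with a mean below that of HS mice, at 4.98 ± 0.24 in HP mice and 4.98 ± 0.24 in HS mice (−0.01, adjusted p = 0.94).

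The largest difference of any member was in complex IV, the cytochrome c oxidase. All 11 members that passed the filter had a higher mean on HP and 4 of them rose, with a complex median of 0.10. *Cox7a1*, the form of subunit VIIa of heart and skeletal muscle, ran between 3.77 and 6.10 in HP mice with a median of 4.70, and between 3.14 and 5.57 in HS mice with a median of 4.27. The difference was 0.50 ± 0.08 (log2, SE), or 41.3% on the linear scale (adjusted p = 1.53e-06), and the HP mean was higher in 21 of 22 strains. Its means of 4.79 in HP mice and 4.29 in HS mice lie near the floor of 4.08, so the difference is one between dim values. *Cox7a2*, the form of the same subunit that liver uses, differed by 0.12 ± 0.04 (adjusted p = 0.019). None of the muscle and fat markers listed passed the filter in these livers. The part of muscle or fat cells in the difference of *Cox7a1* was not tested.

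*Cox5a*, a subunit on the matrix side, ran between 8.07 and 8.81 in HP mice with a median of 8.44, and between 7.98 and 8.58 in HS mice with a median of 8.33. Its difference was 0.14 ± 0.03 (adjusted p = 0.00015). *Cox4i1*, the general form of subunit IV, which binds ATP, differed by 0.10 ± 0.03 (adjusted p = 0.019), and its other form, *Cox4i2*, was below the floor in every mouse. The liver forms *Cox6a1*, *Cox6b1* and *Cox8a* differed by 0.02 (adjusted p = 0.83), 0.10 (adjusted p = 0.12) and 0.06 (adjusted p = 0.18). Their partners *Cox6a2*, *Cox6b2* and *Cox8b* failed the filter. *Ndufa4* differed by 0.04 (adjusted p = 0.56), and *Ndufa4l2* failed the filter at 3.45 ± 0.35 in HP mice and 3.41 ± 0.35 in HS mice (SD).

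**Figure D2:**
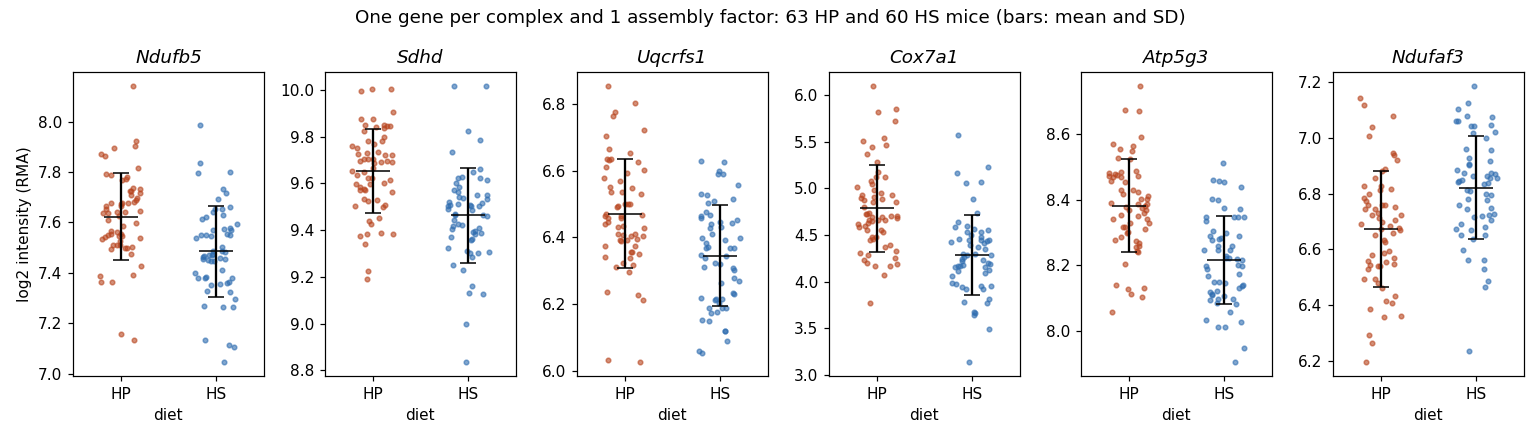
Log2 intensity (RMA, y axis) of the gene with the smallest p by diet in each complex and among assembly factors, with 63 HP mice on the left and 60 HS mice on the right of each panel. Points are mice and bars the mean and SD; the 2 groups overlap in all 6 panels, and only *Ndufaf3* has the lower mean in HP mice.

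In complex V, 6 of 16 members rose, with a median difference of 0.10, and 15 had a higher mean on HP. *Atp5g3*, 1 of the genes for the rotating ring of the membrane part, had the smallest p of all members. It ran between 8.06 and 8.75 in HP mice with a median of 8.38, and between 7.91 and 8.51 in HS mice with a median of 8.22. Its difference was 0.17 ± 0.03 (adjusted p = 6.12e-07), higher on HP in 21 of 22 strains. The other genes for the same ring protein, *Atp5g1* and *Atp5g2*, differed by 0.12 (95% interval −0.08 to 0.33) and 0.03 (−0.04 to 0.10), and neither passed. *Atp5g1* averaged 4.04 ± 0.53 in HP mice and 3.92 ± 0.62 in HS mice (SD), below the floor of 4.08, so its difference is loosely measured. *Atp5b*, the catalytic beta subunit, ran between 11.54 and 11.94 in HP mice with a median of 11.74, and between 11.40 and 11.81 in HS mice with a median of 11.63. Its difference was small and even over mice, 0.10 ± 0.02 (adjusted p = 1.85e-05), and was higher on HP in 21 of 22 strains. *Atp5c1*, the gamma shaft, differed by 0.15 ± 0.04 (adjusted p = 0.0012). The stator subunits *Atp5pb* and *Atp5j* and the alpha subunit *Atp5a1* rose by 0.14, 0.11 and 0.09. *Atp5l*, a small membrane subunit, was the only member with a mean below that of HS mice (0.00, 95% interval −0.18 to 0.17).

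Complex I, the largest complex, had the smallest share of called members among the complexes, 8 of 32, and a median difference of 0.06. The count was the least stable of the complexes, with 1 higher without replicate 1, 8 without replicate 2 and 0 without replicate 3. All genes higher on HP numbered 256, 319 and 586 in these fits, against 687 in the main fit. *Ndufb5*, an accessory subunit of the membrane arm, ran between 7.13 and 8.14 in HP mice with a median of 7.64, and between 7.05 and 7.99 in HS mice with a median of 7.47. Its difference was 0.14 ± 0.03 (adjusted p = 0.0012). *Ndufv2*, an iron-sulphur subunit of the module that oxidizes NADH, ran between 8.66 and 9.63 in HP mice with a median of 9.08, and between 8.64 and 9.53 in HS mice with a median of 8.93. Its difference was 0.13 ± 0.04 (adjusted p = 0.0050). *Ndufb10*, also of the membrane arm, differed by 0.12 ± 0.04 (adjusted p = 0.011), with the HP mean higher in 20 of 22 strains, and did not pass with the clock score as a covariate (0.09, adjusted p = 0.082). *Ndufv1*, which binds NADH and flavin, and *Ndufs1*, the largest iron-sulphur subunit, rose by 0.09 and 0.12. The accessory subunits *Ndufa5*, *Ndufa9* and *Ndufb8* made up the rest and rose by 0.13, 0.09 and 0.15. The call of *Ndufb8* ended with array weights and without the 2 mice that stood apart, and that of *Ndufv1* with the clock score as a covariate. Without a filter on low values the calls of *Ndufb8*, *Ndufv1*, *Ndufs1* and *Ndufa9* ended.

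In complex I, 5 members had a mean below that of HS mice, and none of them passed. *Ndufa8*, an accessory subunit, had the largest of these differences, −0.15 with a 95% interval of −0.29 to −0.02 (adjusted p = 0.14). It ran between 8.27 and 9.76 in HP mice with a median of 9.28, and between 8.20 and 10.12 in HS mice with a median of 9.42. A second cluster of *Ndufa8* differed by −0.14 (adjusted p = 0.082). *Ndufa11* and *Ndufa3*, both accessory subunits of the membrane arm, differed by −0.04 (adjusted p = 0.59) and −0.02 (adjusted p = 0.87). The second cluster of *Ndufa11* differed by 0.17 in the other direction (adjusted p = 0.29). None of the 8 members with a second cluster past the filter passed by diet in limma with either cluster. The second clusters therefore do not bear on the members that were called.

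Among the assembly factors, 1 rose and 1 fell. Their mean was higher on HP for 4 of 9, near the 46.5% of all genes, and their median difference was −0.05, or 0.0016 without replicate 2. The difference between assembly factors and subunits was not tested. *Ndufaf3*, which helps build the part of complex I that meets ubiquinone, was the only member of the 80 that fell. It ran between 6.20 and 7.14 in HP mice with a median of 6.68, and between 6.24 and 7.19 in HS mice with a median of 6.84. The difference was −0.15 ± 0.04 (adjusted p = 0.0018), lower on HP in 16 of 22 strains. *Ndufaf6*, an early assembly factor, rose by 0.18 ± 0.06 (adjusted p = 0.045) and was higher on HP in 20 of 22 strains. It ran between 4.87 and 6.39 in HP mice with a median of 5.75, and between 4.79 and 6.16 in HS mice with a median of 5.54. The call of *Ndufaf6* ended without the 2 mice that stood apart (0.17, adjusted p = 0.062) and with the clock score as a covariate (0.15, adjusted p = 0.13). *Ndufaf8* and *Ndufaf5* differed by 0.07 (adjusted p = 0.24) and 0.03 (adjusted p = 0.83), and *Ndufaf1* and *Ndufaf7* by −0.07 (adjusted p = 0.24) and −0.05 (adjusted p = 0.40).

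Genes that work with the chain were read from lists. Of all genes tested, 6.28% rose in limma, and 1262 of 10942 rose with strain as a block. Whether a list held a larger share than that was not tested. Of 15 regulators of mitochondrial biogenesis, 3 rose and 0 fell by limma (7 with a higher and 0 with a lower mean before adjustment at p under 0.05), with a list median of 0.06. *Ppargc1a*, the coactivator PGC-1α, averaged 7.32 ± 0.35 in HP mice and 6.97 ± 0.41 in HS mice (SD), a difference of 0.35 ± 0.07 (SE, adjusted p = 0.00011). Its relative *Ppargc1b* differed by 0.24 ± 0.08 (adjusted p = 0.027). *Tfam*, which packs and transcribes mitochondrial DNA, differed by 0.15 ± 0.05 (adjusted p = 0.021). With strain as a block, 5 of the 15 rose. These coactivators are known to act through the factors NRF-1, ETS-family GABP and ERR at promoters of respiratory genes. Of the genes of these factors, *Esrra*, *Gabpa* and *Nrf1* differed by 0.11, 0.06 and 0.05 and did not pass (adjusted p = 0.17, 0.18 and 0.43). *Gabpb2*, *Esrrg* and *Gabpb1* (0.06, 0.05 and −0.05) did not pass either. With strain as a block, *Gabpa* passed (adjusted p = 0.049). The part of these factors in the members' differences was not tested.

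Of 12 measured genes of coenzyme Q synthesis, which makes the carrier between complexes I or II and III, *Coq8b*, *Coq10a* and *Coq9* rose by 0.16, 0.14 and 0.08. Of 7 electron and ATP carriers, the phosphate carrier *Slc25a3* rose by 0.08 (adjusted p = 0.044), and *Slc25a5*, which exchanges ADP for ATP, differed by 0.05 (adjusted p = 0.091). Of 13 genes of the outer membrane and of protein import, the pore protein *Vdac1* and the import motor subunit *Timm44* rose by 0.12 and 0.14 (5 of 13 with strain as a block). Of 4 genes of ATP synthase assembly and inhibition, *Atpif1*, the inhibitor, rose by 0.14 ± 0.04 (adjusted p = 0.023). Of 8 other complex I assembly genes, *Aifm1* rose by 0.10. Of 18 measured complex IV assembly genes only *Cmc1* rose, by 0.16, a share near the 6.28% of all genes. Under the block 5 of the 18 rose. None of 4 complex II and 5 measured complex III assembly genes passed by limma, and at an unadjusted p under 0.05 only *Bcs1l*, which inserts the Rieske protein, was lower (−0.09).

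Promoters are shown for the member with the smallest p by diet in each complex, all of which rose, and for *Ndufaf3*, which fell. Of the 80 members tested, 68 had a promoter in the RefSeq table (GRCm38.p6), which holds 300 bases around each start, most of them before it. The windows, 5′ to 3′ along the gene, lie at chr3:32736813-32737112 (+) for *Ndufb5*, chr9:50603800-50604099 (−) for *Sdhd*, chr13:30545267-30545566 (−) for *Uqcrfs1*, chr7:30183921-30184220 (+) for *Cox7a1*, chr2:73911277-73911576 (−) for *Atp5g3* and chr9:108567387-108567686 (−) for *Ndufaf3*. Capitals mark the searched strings, which were CGCATGCGC for NRF-1, CCGGAAG for ETS factors, AAGATGGC for YY1 and TCAAGGTCA for ERR, on either strand.
Ndufb5: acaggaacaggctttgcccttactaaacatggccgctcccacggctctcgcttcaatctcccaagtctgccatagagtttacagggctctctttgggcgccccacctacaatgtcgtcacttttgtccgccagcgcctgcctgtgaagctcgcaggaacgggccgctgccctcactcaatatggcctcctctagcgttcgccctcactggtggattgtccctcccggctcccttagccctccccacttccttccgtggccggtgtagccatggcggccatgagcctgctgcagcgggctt
Sdhd: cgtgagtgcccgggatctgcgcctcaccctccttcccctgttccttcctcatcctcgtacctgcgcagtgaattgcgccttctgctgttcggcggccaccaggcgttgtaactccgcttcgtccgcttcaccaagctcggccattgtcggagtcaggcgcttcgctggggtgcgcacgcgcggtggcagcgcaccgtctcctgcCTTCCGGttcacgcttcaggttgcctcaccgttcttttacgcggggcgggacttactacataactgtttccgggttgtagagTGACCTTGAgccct
Uqcrfs1: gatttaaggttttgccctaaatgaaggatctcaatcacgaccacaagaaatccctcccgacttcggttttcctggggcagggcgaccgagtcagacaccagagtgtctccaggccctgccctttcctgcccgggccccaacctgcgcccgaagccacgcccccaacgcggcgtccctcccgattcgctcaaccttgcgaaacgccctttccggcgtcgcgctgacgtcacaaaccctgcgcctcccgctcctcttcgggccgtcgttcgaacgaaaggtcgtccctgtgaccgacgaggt
Cox7a1: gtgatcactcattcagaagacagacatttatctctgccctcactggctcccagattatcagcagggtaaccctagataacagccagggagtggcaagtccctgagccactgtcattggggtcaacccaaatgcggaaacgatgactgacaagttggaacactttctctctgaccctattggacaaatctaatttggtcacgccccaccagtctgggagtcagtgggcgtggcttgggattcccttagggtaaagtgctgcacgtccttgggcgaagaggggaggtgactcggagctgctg
Atp5g3: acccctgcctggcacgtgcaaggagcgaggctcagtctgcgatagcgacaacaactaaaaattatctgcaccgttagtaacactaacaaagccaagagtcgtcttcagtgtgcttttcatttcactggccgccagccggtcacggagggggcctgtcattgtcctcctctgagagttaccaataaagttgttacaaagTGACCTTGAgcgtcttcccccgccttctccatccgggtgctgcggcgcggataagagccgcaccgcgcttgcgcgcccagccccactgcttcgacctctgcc
Ndufaf3: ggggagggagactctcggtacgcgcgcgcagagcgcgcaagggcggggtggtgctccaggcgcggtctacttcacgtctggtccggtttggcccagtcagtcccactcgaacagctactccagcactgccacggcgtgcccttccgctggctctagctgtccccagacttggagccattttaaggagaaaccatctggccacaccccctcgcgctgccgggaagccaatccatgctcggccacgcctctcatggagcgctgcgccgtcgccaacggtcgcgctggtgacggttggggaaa

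In these windows, *Sdhd* held the ETS string at positions 205 to 211 and the ERR string at 287 to 295, and *Atp5g3* the ERR string at 199 to 207, all as the reverse complement. The other 4 windows held none of the strings as spelled. Over all members with a promoter, *Sdhd* and *Atp5g3* were the 2 with the ERR string, 2.94% of 68, against 0.324% of 8654 tested genes and 0.466% of 27025 genes with a promoter. The NRF-1 string stood in 10 members, 14.7%, against 4.16% of tested genes and 1.95% of all genes. These were *Ndufa8*, *Ndufa11*, *Uqcrc1*, *Uqcr11*, *Cox6a1*, *Atp5g2*, *Atp5k*, *Atp5l*, *Ndufaf4* and *Ndufaf5*. Only *Uqcr11* among them rose on the HP diet, against 26 of all 80 members. The ETS string stood in 19 members, 27.9%, against 20.04% of tested genes and 9.93% of all genes. Of these, *Sdhb*, *Sdhd*, *Uqcr11* and *Atp5j* rose. The YY1 string stood in 9 members, 13.2%, against 5.38% and 3.19%, and 6 of the 9 belonged to complex I, which had 29 of the 68 promoters. Among the 9, *Ndufa9*, *Ndufb8*, *Atp5j* and *Atp5pb* rose. A link between a string and the diet difference was not tested. The ETS and YY1 strings can overlap by the letters AAG. A match is a description of the letters and not of a bound site.

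The second question was how the members differed between the 22 strains. By strain 59 of the 80 members passed (limma F test, adjusted p under 0.05), 73.8% against 81.3% of all genes tested. The median F was 2.39 for members and 3.10 for all genes. The subunits of complex IV had the lowest median F, 1.87, with 6 of 11 called, and the assembly factors the highest, 4.20, with 8 of 9 called. All 4 subunits of complex II were called, as were 23 of 32 in complex I, 6 of 8 in complex III and 12 of 16 in complex V. Both tests were passed by 21 of the 80 members and by 1050 of the 10942 genes, the diet test alone by 6 members and 198 genes. Neither was passed by 15 members and 1847 genes, a like share.

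Some members split the strains into a low and a high group, and others ran evenly across them. *Ndufb3*, an accessory subunit of complex I, had the largest F of all members (F = 13.4, adjusted p = 7.09e-20). Its strain means were 4.20 in CC040/TauUnc, 4.21 in CC024/GeniUnc, 4.24 in CC030/GeniUnc and 4.39 in CC071/TauUnc, and 4.85 to 5.40 in the other 18 strains. The gap of 0.46 between these groups exceeded the SD of 0.25 within strains, and within either group neighbours in the order differed by less than that SD. *Ndufa6*, also of complex I, had F = 11.1 (adjusted p = 3.56e-17) and no such gap. Its means ran evenly between 8.57 in CC004/TauUnc and 9.15 in CC045/GeniUnc, with an SD of 0.13 within strains and no neighbours in the order over 0.10 apart.

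*Cox7c*, a small subunit of complex IV, ran between 3.62 ± 0.51 in CC006/TauUnc (SD, n = 6) and 4.98 ± 0.22 in CC059/TauUnc (n = 6), with F = 9.81 (adjusted p = 1.68e-15). Its widest gap, 0.19, was below the SD of 0.31 within strains. The strain means of *Cox7c* from 3.62 in CC006/TauUnc up to 4.02 in CC027/GeniUnc lie below the floor of the filter. The low end of its range is therefore made of dim values. *Cox7a1* also varied by strain (F = 3.47, adjusted p = 2.80e-05), with the highest mean in CC035/Unc, 5.46 ± 0.54 (n = 5), which stood 0.46 above the next. *Uqcrc1*, a core protein of complex III, averaged 9.01 ± 0.15 in CC063/Unc (SD, n = 4), 0.41 below the next strain, and 10.17 ± 0.13 in CC002/Unc (n = 6), with F = 6.35 (adjusted p = 2.17e-10). *Uqcrb* had F = 3.90 (adjusted p = 4.43e-06) and ran between 10.80 in CC019/TauUnc and 11.34 in CC001/Unc.

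In complex II, *Sdha* (F = 5.36, adjusted p = 1.005e-08) ran between 10.14 in CC024/GeniUnc and 10.56 in CC001/Unc, and *Sdhc* (F = 3.10, adjusted p = 0.00014) between 7.78 in CC019/TauUnc and 8.17 in CC041/TauUnc. In complex V, *Atp5j* (F = 5.07, adjusted p = 3.26e-08) was 6.90 to 7.01 in 4 strains, of which CC040/TauUnc was lowest, and 7.12 to 7.35 in the other 18. The gap between them, 0.115, was below the SD of 0.128 within strains. *Atp5e*, the epsilon subunit, had F = 4.01 (adjusted p = 2.75e-06) and its highest mean, 8.28, in CC063/Unc. Its second cluster did not pass by strain (F = 0.911, adjusted p = 0.59), although the strain means of both correlated at r = 0.902 over 22 strains.

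Among assembly factors, *Ndufaf5*, which modifies a complex I subunit, ran between 4.04 ± 0.27 in CC008/GeniUnc (SD, n = 5) and 5.11 ± 0.36 in CC024/GeniUnc (n = 4), with F = 9.13 (adjusted p = 1.41e-14). *Ndufaf2*, a late assembly factor, had F = 8.20 (adjusted p = 2.94e-13) and a step. Its means were 2.83 to 3.09 in CC032/GeniUnc, CC040/TauUnc, CC001/Unc, CC041/TauUnc and CC024/GeniUnc, and 3.58 to 4.12 in the other 17 strains, across a gap of 0.49 against an SD of 0.35 within strains. All these strain means apart from that of CC006/TauUnc lie below the floor of 4.08, so *Ndufaf2* passed the filter only through its brighter mice, and its step is one between dim values. CC040/TauUnc and CC024/GeniUnc were low for both *Ndufb3* and *Ndufaf2*. *Ndufc1*, a complex I subunit named here after its values were seen, had the widest gap of those with F above 3.4, with a mean of 4.26 ± 0.14 in CC063/Unc (SD, n = 4) and of 5.29 or more in the other 21 strains.

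**Figure D3:**
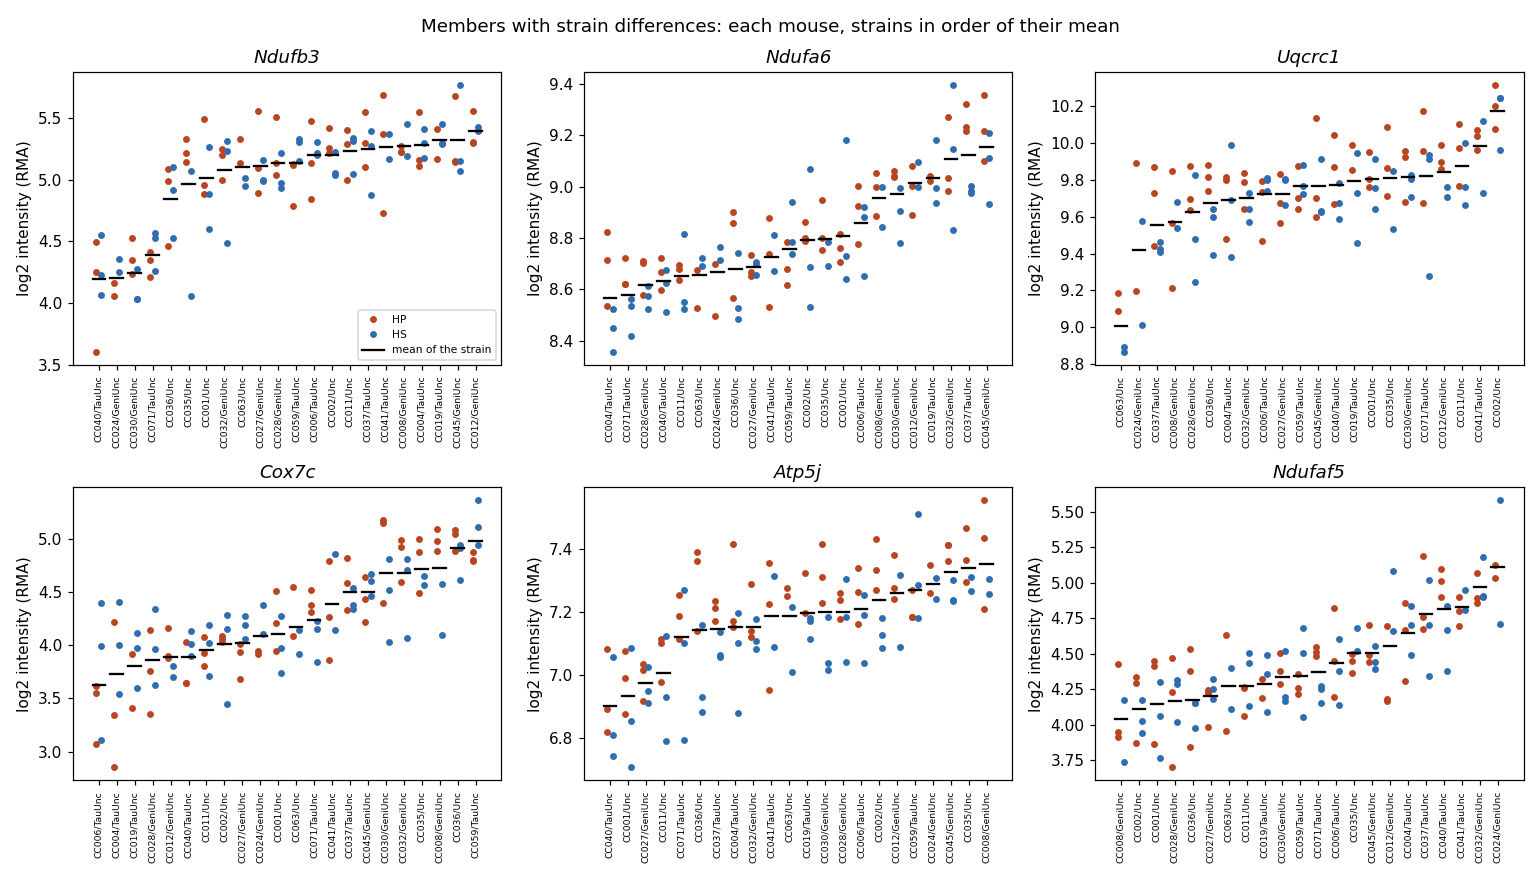
Log2 intensity (RMA, y axis) of 6 members in each mouse, with the 22 strains in order of their mean along the x axis. Within a strain HP mice stand left of HS mice and the line is the strain mean; *Ndufb3* shows 4 low strains set apart from 18, and *Uqcrc1* 1 low strain, CC063/Unc.

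The level of a complex across strains was read from the mean over its members, centred on the mean of the strains. Single members can weigh on this mean, so it does not show whether the members moved together. For complex I this mean was lowest in CC040/TauUnc, −0.11 ± 0.08 (log2, SD, n = 6), and highest in CC045/GeniUnc, 0.11 ± 0.06 (n = 6). For complexes III, IV and V it was lowest in CC028/GeniUnc, at −0.13 ± 0.09, −0.14 ± 0.16 and −0.14 ± 0.09 (n = 6). The highest mean of complex III was in CC045/GeniUnc (0.11), that of complex IV in CC035/Unc (0.16), and those of complexes II and V in CC041/TauUnc (0.14 and 0.13). The median SD within a strain was 0.08 for complex I and 0.14 for complex IV, near the size of these extremes. The complex IV mean of CC035/Unc includes *Cox7a1* at 5.46 and *Cox7c* at 4.71 there, against 4.54 and 4.25 over all mice. The assembly factors gave another order, with the lowest mean in CC001/Unc (−0.12) and the highest in CC071/TauUnc (0.15).

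Against the mean of the other 21 strains, CC028/GeniUnc had the most members called lower, 15 of 80 or 18.8%, against 8.24% of all genes. They were spread over the complexes, with 4 of complex I, 1 of complex II, 3 of complex III, 2 of complex IV, 4 of complex V and 1 assembly factor. The smallest p was that of *Ndufb6*, a membrane arm subunit, at 5.99 in CC028/GeniUnc and 6.31 over the other strains. CC040/TauUnc followed with 12 or 15%, against 8.65% of all genes, led by *Ndufb3*, *Ndufaf2* and *Atp5j*. Most members called higher were found in CC045/GeniUnc, 9 or 11.2%, against 7.92% of all genes, and in CC041/TauUnc, 8 or 10%, against 6.12%. In CC045/GeniUnc the member with the smallest p was *Ndufa6*, at 9.15 in this strain and 8.79 over the others. The counts of CC045/GeniUnc and CC041/TauUnc were 5 each without a filter on low values. Leaving out the mice of 1 replicate number left 3 to 10 members lower in CC028/GeniUnc and 4 to 9 in CC040/TauUnc, and 3 to 5 higher in CC045/GeniUnc and 0 to 5 in CC041/TauUnc.

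**Figure D4:**
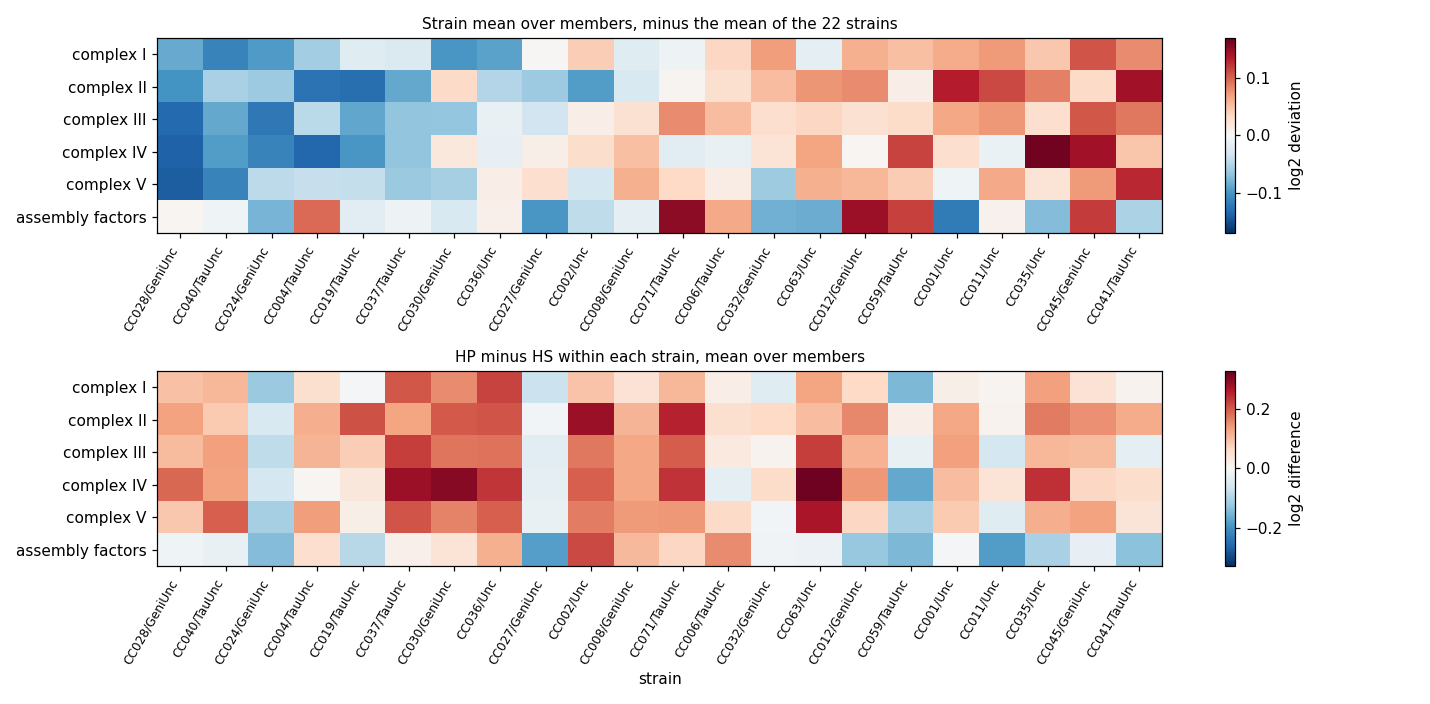
Mean over the members of each complex (rows) in the 22 strains (columns, in order of the mean of complexes I to V), as log2 deviation from the mean of the strains (upper panel) and as HP minus HS within the strain (lower panel). CC028/GeniUnc and CC040/TauUnc lie at the low end and CC045/GeniUnc and CC041/TauUnc at the high end; the HP minus HS mean was above 0 in 17 strains for complexes I, III and V, in 18 for complex IV and in 20 for complex II.

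The third question was whether the diet difference depended on strain. No member passed the interaction test (limma F test, 0 of 80, against 0.0183% of all genes). An unadjusted p under 0.05 was found for 4 of 80 members and for 524 of 10942 genes, a like share, and the 3 members with the smallest p are given as values only. With array weights in the fit, 1 member passed, *Ndufaf2* (adjusted p = 0.029). The HP minus HS difference of *Ndufaf2* ran between −0.61 in CC012/GeniUnc and 0.73 in CC008/GeniUnc (F = 1.92, p = 0.020, adjusted p = 0.93). *Ndufs3*, a core subunit of complex I, ran between −0.18 in CC059/TauUnc and 0.25 in CC028/GeniUnc (F = 1.80, p = 0.032, adjusted p = 0.98). *Ndufb9* ran between −0.26 in CC027/GeniUnc and 0.29 in CC063/Unc (F = 1.72, p = 0.044, adjusted p = 0.9999). With 2 or 3 mice per strain and diet, single strains are loosely measured. Taken by complex, the mean difference within a strain was highest for complex I in CC036/Unc (0.22), for complex II in CC002/Unc (0.28), and for complexes III, IV and V in CC063/Unc (0.23, 0.32 and 0.27). It was lowest in CC059/TauUnc for complexes I and IV (−0.15 and −0.17), which holds the mouse closest to CC035/Unc, and in CC024/GeniUnc for complexes II, III and V (−0.05, −0.09 and −0.11). For the assembly factors it was above 0 in 8 of 22 strains.

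After strain and diet were taken out, the members varied together from mouse to mouse. The median Pearson r of pairs of members, over all 63 HP and 60 HS mice, was 0.19 within complex I (496 pairs), 0.08 within complex II, 0.29 within complex III, 0.23 within complex IV and 0.18 within complex V. Pairs of subunits from different complexes had a median of 0.21, as high as most of these, and pairs of all genes tested 0.02. An r above 0.3 was found in 38.5% of the pairs between complexes and in 6.93% of all pairs of genes. Each pair shares its arrays, so whatever differs between arrays enters every r. The assembly factors had a median of 0.16, and 5.56% of their pairs were above 0.3.

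The members did not form a single group. The highest r was between *Atp5l* and *Atp5md*, both of complex V (r = 0.92), and the next between *Cox6a1* of complex IV and *Ndufa8* of complex I (r = 0.90). *Ndufs1* of complex I went with *Uqcrc2* of complex III (r = 0.87). *Ndufs1* ran against *Ndufa8* (r = −0.67), *Ndufa3* (r = −0.66) and *Ndufc1* (r = −0.64), all of its own complex. *Ndufc1* also went with *Cox6a1* (r = 0.87) and *Ndufa8* (r = 0.86). In complex III, *Uqcrc1* had a mean r of −0.18 with its 7 partners, against 0.37 for *Uqcr11*, and in complex V *Atp5a1* had −0.09. The most central members of complexes I, II and IV were *Ndufb9* (0.32), *Sdhb* (0.33) and *Cox6b1* (0.36).

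**Figure D5:**
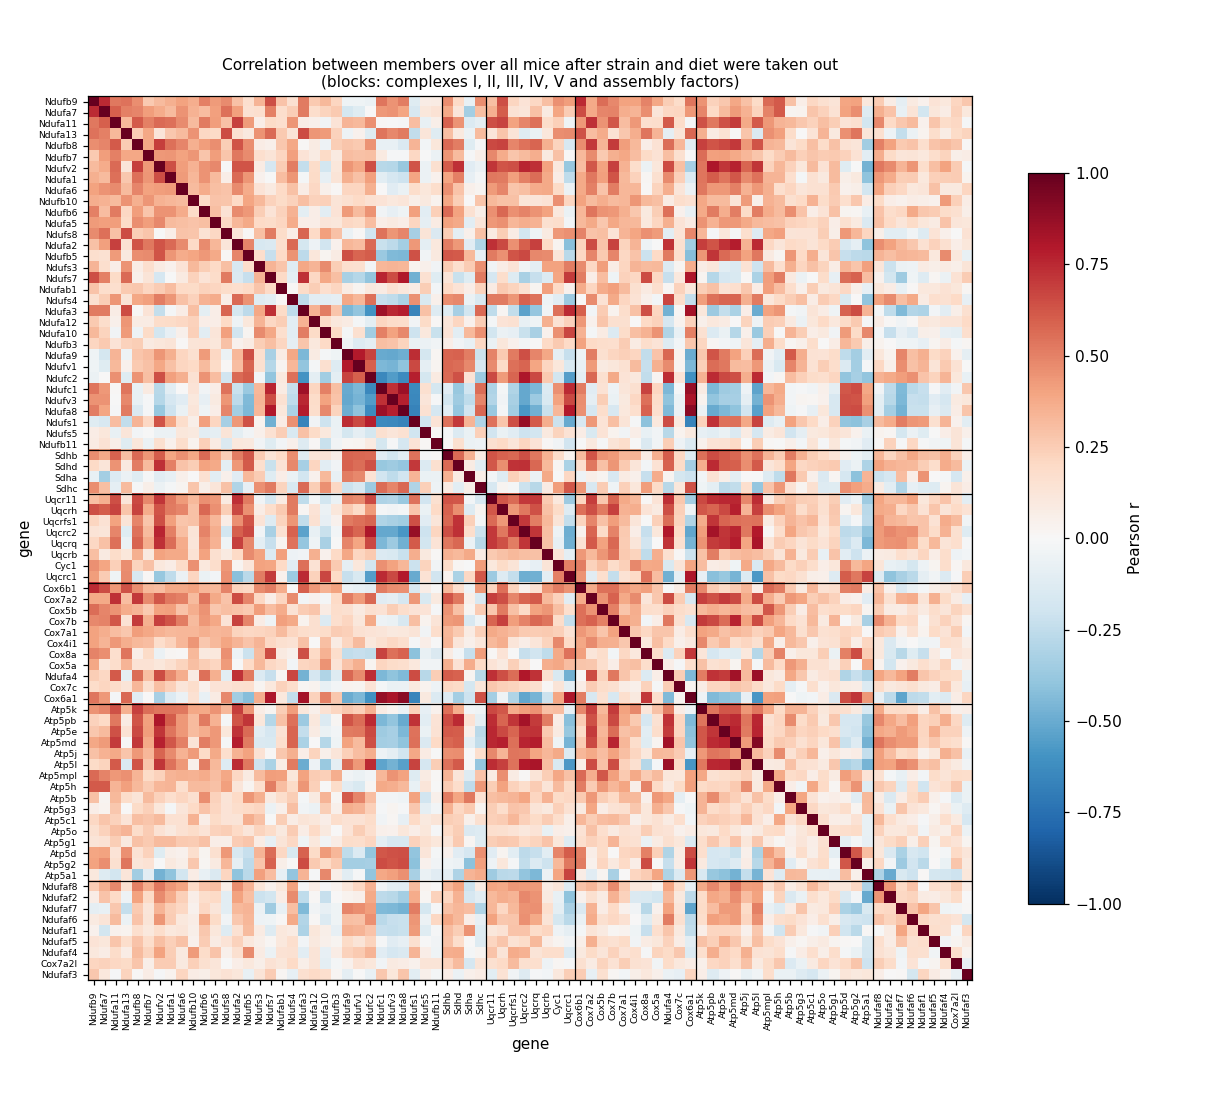
Pearson r (colour) between each pair of the 80 members over all mice after strain and diet were taken out, with members on both axes grouped by complex and, within a complex, in order of their mean r with its other members. *Ndufs1* ran against *Ndufa8*, *Ndufa3* and *Cox6a1* (r = −0.67, −0.66 and −0.66), while *Cox6a1* and *Ndufa8* reached r = 0.90.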

How the data were processed

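Liver RNA was read on 1 array per mouse, and the authors deposited log2 intensities from RMA (background correction, sketch-quantile normalization, median polish) made over all arrays together. The submitters' processing notes name RMA and Affymetrix Expression Console, with no version. Per the study's methods, arrays marked by all 3 quality checks had been dropped. No scanner output was read, so signal over background was not checked, and array plate and study week could not enter a fit.

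Groups were taken from the labels, and 0 columns were left without a mouse. Of 41345 clusters, 23521 had 1 symbol in the platform annotation, which can be old; 1820 with several symbols and 16004 with none were not used, which leaves out 8 further genes of the same prefixes. Pseudogenes were dropped, and each gene was read from its brightest cluster. The floor of 4.08 is the mean of the cluster medians. Probe sequences were not read, so the effect of strain variants under the probes was not tested, and levels are not compared between genes.

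Diet (HP minus HS, as the only term), strain and their interaction were fitted with lmFit and eBayes of limma 3.58.1 (R 4.3.3) over 10942 genes, with summaries in Python 3.11.15 (pandas 2.3.3, numpy 2.4.6, scipy 1.17.1). The main fits of diet, strain and their interaction were tested on simulated data. Members and gene lists were chosen with earlier results of these data known, and lists were written from general knowledge. Named by rule were, per complex, the 3 smallest diet p in each direction and the 2 largest strain F, then the 3 smallest interaction p, members that failed the filter, tissue forms, and up to 3 genes per list. Promoters came from RefSeq and were matched by gene ID. The alternatives tried were strain as a block, no filter, the mean of all clusters, centred arrays, a repeated quantile normalization, array weights, a trended and robust prior, the clock score as covariate, and leaving out the 2 mice, each strain or each replicate number. The second clusters were fitted after the data were seen. The number of arrays limits the precision.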

Additional observations from a re-analysis of the deposited data

How the results depend on the processing

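The count of members called by diet, 27, was 20 to 32 over the 9 other settings of the fit that kept every strain, and 11 to 28 when a strain or a replicate number was left out. For members higher on HP these were 19 to 31 and 10 to 27, and *Ndufaf3* was lower in every setting. The low ends came from leaving out a replicate number, which removes up to 1 mouse of each strain and diet. Of all genes, 687 were higher on HP in the main fit and 256 to 586 without a replicate number. Of the 27 calls, 9 held whichever replicate number was left out, 19 under all 9 other settings and 17 whichever strain was left out. *Ndufa5* (without CC036/Unc, adjusted p = 0.053), *Cox4i1* (without CC030/GeniUnc, 0.054) and *Cox7a2* (without CC037/TauUnc, 0.055) each lost theirs with 1 strain, *Ndufs1* with 2, *Ndufa9* with 3, *Sdha* with 8, *Ndufv1* with 9, *Ndufb8* with 10, *Uqcrb* with 12 and *Ndufaf6* with 13. The interaction gave 0 members in every setting but array weights, with 1, where it called 234 genes in all. Members higher in CC045/GeniUnc (9) were 5 without a filter and 3 to 11 over the left-out mice. Members higher in CC041/TauUnc (8) were 5 without a filter, 5 with arrays centred on their median and 0 to 9 over the left-out mice, with 5 without CC008/GeniUnc and 5 without CC019/TauUnc. Members lower in CC028/GeniUnc (15) were 3 to 16 and those in CC040/TauUnc (12) 4 to 14. The median difference of the assembly factors, −0.05, ran between −0.065 and 0.0016 and changed sign without replicate 2. With a shorter core the ETS string stood in 33 members, 48.5% against 34.55% of tested genes. The ERR core stood in 6 members, 8.82% against 4.18%, and among these 6 only *Sdhd* and *Atp5g3* rose on the HP diet. The NRF-1 core stood in 12 members, 17.6% against 6.03%, of which *Sdhb* and *Uqcr11* rose. The YY1 core stood in 10 members, 14.7% against 8.53%. The cause of these changes was not tested. Replicate numbers only name mice and pair none, while diet was compared within strains by the fit with strain as a block, which called 32 members.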

Other observations

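Genes of the same families that the annotation reads only through clusters shared with another symbol were left out of every count, and their values were as follows. The cluster of *Uqcr10*, a small subunit of complex III, shared with *Gm6293*, averaged 6.17 ± 0.27 in HP mice and 5.99 ± 0.26 in HS mice (log2, SD, n = 63 and 60), with the HP mean higher in 17 of 22 strains. The brighter cluster of *Cox6c*, a subunit of complex IV, shared with *Gm6265*, averaged 10.27 ± 0.16 in HP mice and 10.17 ± 0.18 in HS mice, with the HP mean higher in 18 of 22 strains. The clusters of *Ndufb2*, *Ndufb4* and the brighter one of *Ndufs6*, all of complex I, differed by 0.02, 0.03 and 0.02 (HP minus HS). These clusters were not tested.

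*Cox6b2*, the testis form of a complex IV subunit, failed the filter but was above the floor in 11 mice, and these belonged to 3 strains. Its mean was 4.95 ± 0.83 in CC011/Unc (SD, 5 of 6 mice above the floor), 4.18 ± 0.52 in CC004/TauUnc (2 of 6) and 4.14 ± 0.74 in CC028/GeniUnc (4 of 6), and 2.88 or less in the other 19 strains.

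Where a member had 2 clusters past the filter, their strain means correlated over 22 strains at r = 0.97 for *Atp5g2*, 0.90 for *Atp5e*, 0.81 for *Ndufa8* and 0.81 for *Atp5d*, and at r = 0.45 for *Ndufa12*, 0.44 for *Ndufa11*, 0.35 for *Atp5h* and 0.30 for *Cox7b*. *Ndufa12* did not pass by diet with its brightest cluster (0.09, adjusted p = 0.23) and passed when its clusters were averaged (0.12, adjusted p = 0.038).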
